A study of Mus musculus with 12 samples.

Results

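The receptors for interleukin-5, interleukin-3 and GM-CSF are encoded in the mouse by 5 genes: Il5ra, Il3ra, Csf2ra, Csf2rb and Csf2rb2. These genes were taken by name, and their reads were compared between eosinophils of blood and of fat. They are 5 of the 54115 genes quantified. All 5 passed the low-count filter that left 15367 genes for testing. The libraries came from wild-type, untreated male FVB/NJ mice aged 20 weeks and kept on chow, 5 animals in all. Each of 3 groups held 4 libraries from separate mice: blood, gonadal white adipose tissue and subcutaneous white adipose tissue. Any pair of groups shared 3 mice. Cells were sorted as live CD45+ CD11b+ Siglec-F+ cells. Fat was first digested with collagenase at 37 °C for 45 min and blood was not, so tissue and digestion cannot be told apart in any comparison with blood.

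Each of these receptors pairs a ligand-specific alpha chain with a beta chain that carries the signal. Il5ra encodes the alpha chain for interleukin-5, the main growth and survival cytokine of eosinophils. Il3ra encodes the alpha chain for interleukin-3, and Csf2ra that for GM-CSF. Csf2rb encodes the common beta chain, which serves all of these alpha chains. The mouse has a further beta chain gene, Csf2rb2, a close paralog of Csf2rb whose product pairs with the interleukin-3 receptor alone. Ligand binding activates the kinase JAK2 on the beta chain and, through it, STAT5, the MAP kinases and PI3-kinase.

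In the GRCm38 annotation (GENCODE M21), Il5ra (ENSMUSG00000005364) lies at chr6:106710357-106749037 on the minus strand. Il3ra (ENSMUSG00000068758) lies at chr14:14346275-14356011 on the plus strand, and Csf2ra (ENSMUSG00000059326) at chr19:61223957-61228429 on the minus strand. The beta chain genes are neighbours on chromosome 15 in opposite orientation. Csf2rb2 (ENSMUSG00000071714) lies at chr15:78282507-78305721 on the minus strand and Csf2rb (ENSMUSG00000071713) at chr15:78325752-78353847 on the plus strand.

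Reads of the beta chain genes can be told apart only where the transcripts differ. The main coding transcripts, Csf2rb-201 and Csf2rb2-201, have coding lengths of 2688 and 2634 bases. Of 2628 aligned coding positions, 2503 were identical, or 95.2%. Of all 31-base words in the Csf2rb-201 transcript, 28.9% also occurred in Csf2rb2-201, and 29.1% the other way round. The most different 90-base stretch of the coding sequences shows what a read must hold to be placed. It lies in exon 4 of both transcripts, at chr15:78338897-78338986 (plus strand) in Csf2rb and at chr15:78294345-78294434 (minus strand) in Csf2rb2. Both are given 5′ to 3′ from the reference genome and not from the FVB/NJ reads, with the 16 positions that differ in capitals.
Csf2rb: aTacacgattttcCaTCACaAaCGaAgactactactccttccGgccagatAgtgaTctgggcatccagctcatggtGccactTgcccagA
Csf2rb2: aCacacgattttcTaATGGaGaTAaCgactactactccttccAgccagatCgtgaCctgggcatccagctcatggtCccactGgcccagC
The opposite case is the longest identical run of the coding sequences, 242 bases in exon 14. It lies at chr15:78348577-78348818 (plus strand) in Csf2rb and at chr15:78284630-78284871 (minus strand) in Csf2rb2, and a read that falls inside it fits both genes.
Csf2rb and Csf2rb2: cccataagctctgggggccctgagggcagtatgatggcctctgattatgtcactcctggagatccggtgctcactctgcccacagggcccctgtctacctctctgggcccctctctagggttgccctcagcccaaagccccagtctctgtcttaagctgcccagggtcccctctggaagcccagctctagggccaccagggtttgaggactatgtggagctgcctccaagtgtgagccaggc
The deposited estimates carry this ambiguity. Summed per gene, the reads of Il5ra, Il3ra and Csf2ra were whole numbers within 0.001 in every library. Those of Csf2rb were 0.06 to 0.477 away from a whole number, while Csf2rb and Csf2rb2 added together were whole within 0.001. Shared reads had thus been divided between these paralogs and no other gene.

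Library depth was 12477671 to 23734940 estimated reads, except for the subcutaneous library of mouse 2846 with 4379954. In that library mitochondrial ribosomal RNA took 28.0% of the reads (4.64% to 8.74% elsewhere), and it had the highest stromal and endothelial marker sum, 3424 CPM (reads scaled to a common library size with TMM factors). The summed eosinophil markers were 3828 to 4778 CPM in blood and were lowest in the gonadal library of mouse 2683 (1699 CPM) and the subcutaneous library of mouse 2846 (1444 CPM). The largest blood means in this sum were those of Ccr3 (1526 CPM), Alox15 (1288 CPM) and Adgre1 (723.3 CPM). The gonadal library of mouse 2683 also had the highest sum over the monocyte list, 6701 CPM, of which Fn1, the fibronectin gene, made up 6195. Without Fn1 the sums were 43.6 to 346.2 CPM in blood, 179.9 to 626.8 in gonadal and 205.2 to 761.5 in subcutaneous fat, with 505.6 in that library. Siglecf, 1 of the sorting antigens, did not pass the test in either fat depot against blood. Ptprc and Itgam, which encode CD45 and CD11b, were lower in both (log2 fold change -0.90 and -0.95 in gonadal, -0.85 and -1.05 in subcutaneous fat). Ccr3, the eotaxin receptor of eosinophils, was also lower in both, with 1526 CPM in blood, 724.8 in gonadal and 704.2 in subcutaneous fat. Of the 12 eosinophil markers, 0 were higher and 5 lower in each depot, beside 11.6% and 11.4% of all genes tested that were lower. Their median log2 fold change was -1.44 in gonadal and -0.98 in subcutaneous fat. Epx and Prg2, which encode granule proteins, had group means of at most 4.49 and 3.53 CPM. Macrophage marker sums were 318.7 to 642 CPM in blood, 803.1 to 2330 in gonadal and 934.6 to 3217 in subcutaneous fat. Csf1r alone held 314.4 to 370.2 CPM in blood, with means of 546 and 536.2 CPM in gonadal and subcutaneous fat. Over the 12 genes of this list the median log2 fold change against blood was 3.57 in gonadal fat (range -3.64 to 4.87). In subcutaneous fat it was 3.96 (range -2.77 to 4.91). Neutrophil marker sums were 2915 to 4258 CPM in blood, 373.7 to 801.6 in gonadal and 409 to 1296 in subcutaneous fat. Most of the blood sum came from Retnlg and Mmp9, with means of 2582 and 574.4 CPM. S100a8 and S100a9 averaged 59.8 and 154.8 CPM there, and Ly6g, Camp, Elane and Mpo at most 0.943 CPM. In these bulk libraries fewer cells of a type and less RNA per cell cannot be told apart.

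Against blood, Il3ra and Csf2rb were higher in both fat depots, and Il5ra, Csf2ra and Csf2rb2 did not pass the test in either. With edgeR's quasi-likelihood test and Benjamini-Hochberg adjustment over all 15367 genes, 2 of the 5 genes were thus called higher and 0 lower in gonadal fat. At the same threshold 27% of all genes tested were called there, 15.4% higher and 11.6% lower. In subcutaneous fat the same 2 of 5 were called higher, beside 26.8% of all genes called, 15.4% higher and 11.4% lower. Both comparisons use the same 4 blood libraries, so they are not independent. Between the fat depots, 0 of 5 were called by edgeR, where 0.00651% of all genes were. The call thresholds are an adjusted p of 0.05, and fold changes are given on the log2 scale (log2FC) with their standard error (SE).

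**Figure D1:**
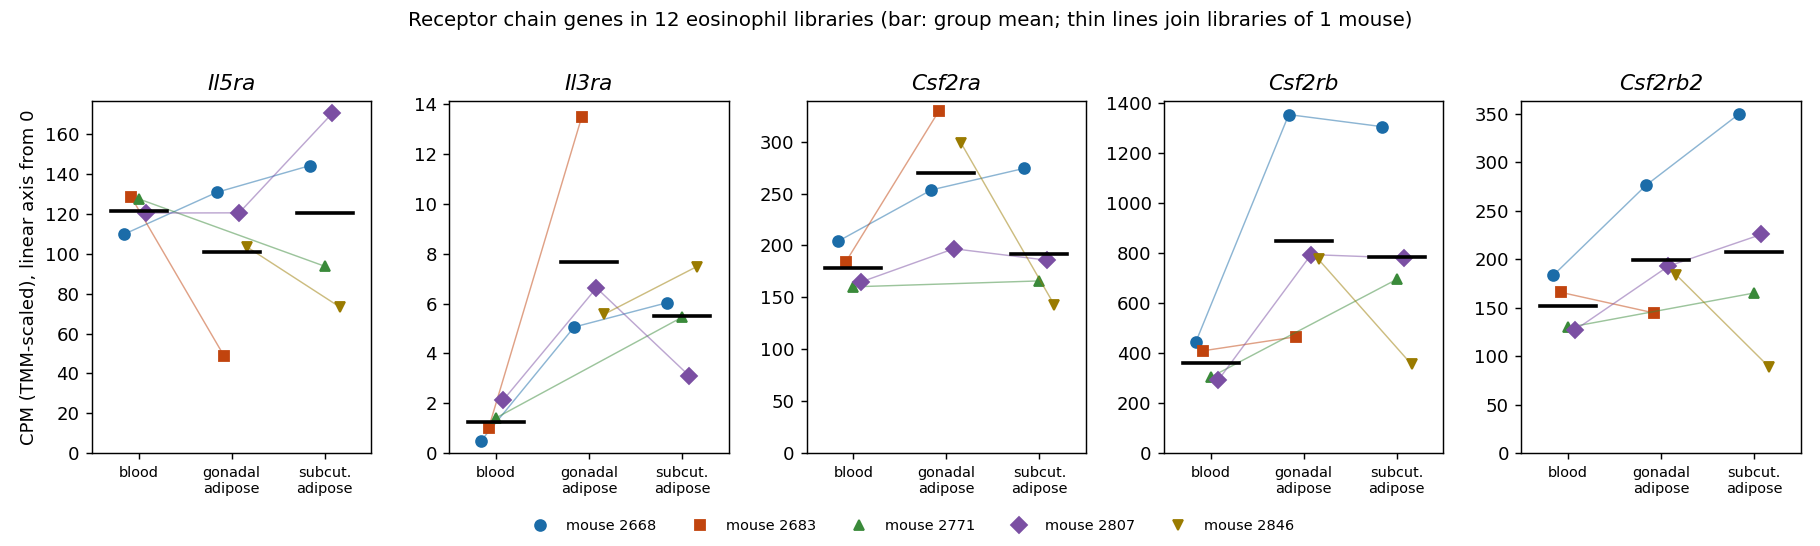
CPM scaled by TMM factors (vertical axis, linear from 0) of each receptor chain gene in blood, gonadal and subcutaneous adipose eosinophils, 4 libraries a group; symbols are mice, black bars group means, and thin lines join libraries of 1 mouse. Il3ra lies between 0.496 and 2.14 CPM in blood and above 3.08 CPM in every fat library, and mouse 2668 has the highest Csf2rb value in each group.

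Il3ra was the rarest of the 5 and showed the largest difference from blood. In blood it had 0.496, 0.995, 1.41 and 2.14 CPM in mice 2668, 2683, 2771 and 2807, from 10, 19, 30 and 36 counts. In gonadal fat it had 5.06, 13.5, 6.63 and 5.57 CPM in mice 2668, 2683, 2807 and 2846, and in subcutaneous fat 6.03, 5.45, 3.09 and 7.49 CPM in mice 2668, 2771, 2807 and 2846. Every fat library lay above every blood library. Ranges of CPM without overlap and higher in fat were found for 18.6% of all genes in gonadal and 13.8% in subcutaneous fat, and lower in fat for 17.7% and 15.7%. The means were 1.26 ± 0.694 CPM in blood, 7.68 ± 3.92 in gonadal and 5.52 ± 1.83 in subcutaneous fat (SD, n = 4). In gonadal fat the log2FC was 2.61 (SE 0.52, 95% interval 1.49 to 3.73), a 6.09-fold difference, with an edgeR adjusted p of 0.00339. In subcutaneous fat it was 2.12 (SE 0.51, 95% interval 1.00 to 3.23), 4.33-fold, with an edgeR adjusted p of 0.0103.

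The difference in Il3ra held within animals. In the 3 mice with both tissues it was 3.10- to 13.5-fold higher in gonadal fat than in blood, and 1.45- to 12.2-fold higher in subcutaneous fat. With gonadal 2683 and subcutaneous 2846 left out, the libraries that stand apart above, the edgeR log2FC was 2.21 in gonadal and 1.98 in subcutaneous fat, with adjusted p of 0.00748 and 0.0136. The highest Il3ra value was that of the gonadal library of mouse 2683, which also had the highest Fn1 value. Within subcutaneous fat the highest was that of mouse 2846 (7.49 CPM). These libraries had the lowest eosinophil marker sums, 1699 and 1444 CPM, and the part of cell content in the Il3ra result was not tested. Il3ra is also carried by basophils and plasmacytoid dendritic cells. The summed plasmacytoid dendritic cell markers, none of 6 at 0 throughout, were 0.576 to 5.82 CPM in blood, 2.50 to 11.2 in gonadal and 3.53 to 47.4 in subcutaneous fat, and their part in the Il3ra result was not tested. The sums of 8 basophil and mast cell markers were 11.2 to 22.1, 0.731 to 4.96 and 0 to 48.8 CPM. Kit made up nearly all of the blood sum (10.5 to 22.1 CPM), and the highest sum, in subcutaneous 2771, held 19.0 CPM of Mcpt4, 8.49 of Cma1, 5.51 of Tpsb2 and 5.02 of Cpa3. Mcpt8 and Fcer1a were at 0 in all 12 libraries, and the part of these cells in the Il3ra result was not tested either.

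Il5ra did not pass the test in any comparison, and its values spread more widely in fat than in blood. In blood it had 109.8, 128.5, 127.6 and 120.5 CPM in mice 2668, 2683, 2771 and 2807. In gonadal fat it had 130.9, 48.6, 120.6 and 103.6 CPM in mice 2668, 2683, 2807 and 2846, and in subcutaneous fat 144.3, 93.8, 170.5 and 73.4 CPM in mice 2668, 2771, 2807 and 2846. The lowest values were those of the libraries with the lowest eosinophil marker sums, gonadal 2683 and subcutaneous 2846. The part of cell content in the Il5ra values was not tested. The blood values fell within the subcutaneous range. The means were 121.6 ± 8.65 CPM in blood, 100.9 ± 36.7 in gonadal and 120.5 ± 44.7 in subcutaneous fat (SD, n = 4). Against blood, the log2FC was -0.27 in gonadal fat (SE 0.30, 95% interval -0.92 to 0.38, edgeR adjusted p = 0.546), and -0.06 with gonadal 2683 left out. In subcutaneous fat it was -0.01 (SE 0.30, 95% interval -0.66 to 0.64, edgeR adjusted p = 0.984). The intervals leave room for a fall to 0.529 of the blood level in gonadal fat and for a rise to 1.56 times that level in subcutaneous fat.

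Csf2ra did not pass the test, although its gonadal values lay mostly above those of blood. In blood it had 204.2, 184.3, 160.1 and 164.7 CPM in mice 2668, 2683, 2771 and 2807. In gonadal fat it had 253.5, 329.5, 196.8 and 298.3 CPM in mice 2668, 2683, 2807 and 2846, and in subcutaneous fat 274.3, 165.8, 185.8 and 142.8 CPM in mice 2668, 2771, 2807 and 2846. Of the gonadal libraries, that of mouse 2807 alone overlapped with the blood range. The gonadal log2FC against blood was 0.60 (SE 0.21, 95% interval 0.13 to 1.06), with an edgeR adjusted p of 0.0554, and within the 3 shared mice the gonadal value was 1.20- to 1.79-fold higher. This p lay close to the threshold and passed it under some other settings: with DESeq2 (0.0389), limma-voom with sample weights (0.0198), a filter of 10 CPM (0.0254) and a fit of these groups alone (0.0276). With 1 library left out it also passed in 3 of 12 cases: gonadal 2807 (0.0462), subcutaneous 2668 (0.0251) and subcutaneous 2846 (0.0350). Other settings moved it away from the threshold. With an effective length offset the log2FC was 0.42 (edgeR adjusted p = 0.278). Without gonadal 2683, the library with the highest Csf2ra value, it was 0.46 (edgeR adjusted p = 0.173). That library had the lowest eosinophil marker sum of the gonadal group, and the part of cell content was not tested. In subcutaneous fat the log2FC was 0.11 (SE 0.21, edgeR adjusted p = 0.738). Between the depots, Csf2ra had the lowest p of the 5 genes, 0.0409 by edgeR before adjustment and 0.592 after it, at a log2FC of 0.49 (SE 0.21).

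Csf2rb, the common beta chain, had the most reads of the 5 genes in every library. In blood it had 443.0, 408.5, 303.2 and 290.3 CPM in mice 2668, 2683, 2771 and 2807. In gonadal fat it had 1352, 464.4, 792.7 and 773.4 CPM in mice 2668, 2683, 2807 and 2846, and in subcutaneous fat 1304, 693.6, 779.1 and 354.0 CPM in mice 2668, 2771, 2807 and 2846. All gonadal libraries lay above all blood libraries, with that of mouse 2683 closest to them. The subcutaneous range overlapped that of blood through the library of mouse 2846. The means were 361.2 ± 76.0 CPM in blood, 845.7 ± 370 in gonadal and 782.6 ± 393 in subcutaneous fat (SD, n = 4).

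Csf2rb was 2.34-fold higher in gonadal fat than in blood, at a log2FC of 1.23 (SE 0.38, 95% interval 0.41 to 2.05, edgeR adjusted p = 0.0301). It was 2.17-fold higher in subcutaneous fat, at a log2FC of 1.12 (SE 0.38, 95% interval 0.30 to 1.93, edgeR adjusted p = 0.0443). Within mice, the gonadal value was 1.14- to 3.05-fold and the subcutaneous value 2.29- to 2.94-fold that of the blood of the same animal, higher in 3 of 3 each time. Both calls lay close to the threshold. The gonadal call ended when any 1 of the 4 blood libraries was left out, or gonadal 2668, 2807 or 2846 (libraries named by tissue and mouse), with log2FC of 0.91 to 1.31 and edgeR adjusted p of 0.0570 to 0.0898. The subcutaneous call ended when any 1 blood library was left out, or gonadal 2807 or 2846, or subcutaneous 2668, 2771 or 2807, with log2FC of 0.76 to 1.21 and adjusted p of 0.0665 to 0.126. With gonadal 2683 and subcutaneous 2846 both left out, both differences were larger, at 1.45 and 1.38, with edgeR adjusted p of 0.00314 and 0.00426. With the reads of Csf2rb and Csf2rb2 added into 1 gene, which removes the split of shared reads, the log2FC was 1.03 in gonadal and 0.95 in subcutaneous fat, and neither was called (edgeR adjusted p = 0.0550 and 0.0722).

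Csf2rb2, the interleukin-3-specific beta chain, did not pass the test in any comparison. In blood it had 183.1, 165.8, 129.5 and 127.2 CPM in mice 2668, 2683, 2771 and 2807. In gonadal fat it had 276.2, 144.6, 192.7 and 184.1 CPM in mice 2668, 2683, 2807 and 2846, and in subcutaneous fat 349.7, 165.0, 225.5 and 88.9 CPM in mice 2668, 2771, 2807 and 2846. The ranges overlapped, and the subcutaneous one enclosed that of blood. The log2FC against blood was 0.40 in gonadal fat (SE 0.34, 95% interval -0.33 to 1.13, edgeR adjusted p = 0.414) and 0.46 in subcutaneous fat (SE 0.34, 95% interval -0.27 to 1.19, edgeR adjusted p = 0.338). The subcutaneous value ran from 0.09 with subcutaneous 2668 left out to 0.73 with subcutaneous 2846 left out, and the gonadal value was 0.20 with gonadal 2668 left out. As for Csf2rb, mouse 2668 had the highest value in each of the 3 groups. Its fat libraries also had the highest eosinophil marker sums of their depots, 5292 CPM in gonadal and 4825 CPM in subcutaneous fat. Its blood library did not (4510 CPM, against 4778 in mouse 2683). Within each depot the libraries had the same order by Csf2rb as by this sum. The part of cell content in the Csf2rb and Csf2rb2 values was not tested.

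Between gonadal and subcutaneous fat, the 5 genes had log2FC of -0.26 for Il5ra, 0.49 for Il3ra, 0.49 for Csf2ra, 0.11 for Csf2rb and -0.06 for Csf2rb2. The edgeR adjusted p ranged from 0.592 to 0.977. All 5 genes had overlapping ranges there; 1.94% of all genes tested had ranges apart with gonadal values higher, and 1.69% lower. The intervals were wide: that of Csf2rb ran from -0.69 to 0.92 and that of Il3ra from -0.57 to 1.55 on the log2 scale. The interval of Csf2rb thus allows a value up to 1.89-fold higher in gonadal fat.

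**Figure D2:**
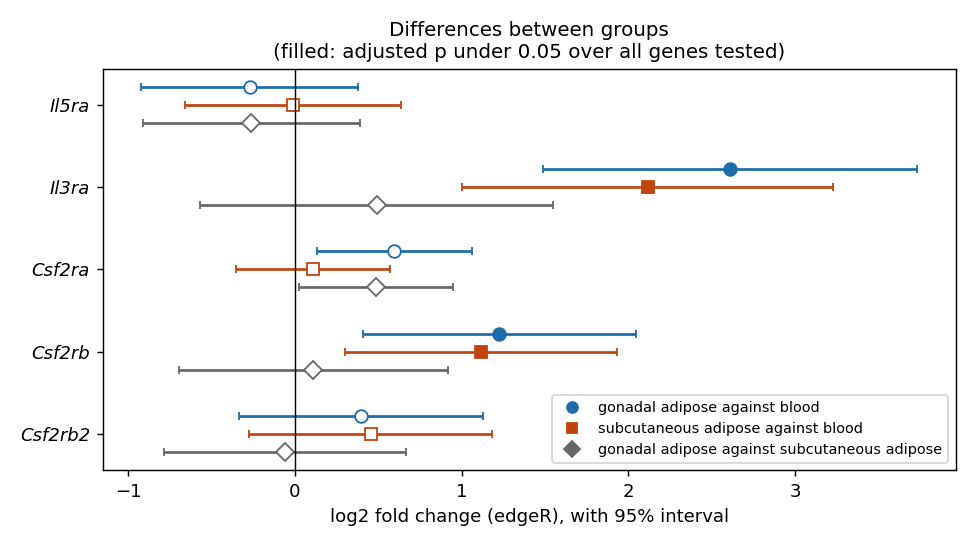
Log2 fold change (horizontal axis) of each receptor chain gene in 3 comparisons, from edgeR on 4 libraries a group; bars are 95% intervals and filled symbols mark an adjusted p under 0.05 over all genes tested. The filled symbols are Il3ra (2.61 and 2.12) and Csf2rb (1.23 and 1.12) against blood; the comparisons with blood share the blood libraries.

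Levels of different genes were compared per transcript length, in the deposited TPM, which divide reads by transcript length and scale each library to 1 total. Csf2ra or Csf2rb came first in every library and Il3ra last. In blood the mean levels were 62.3 ± 17.7 TPM for Csf2ra, 28.4 ± 8.75 for Csf2rb, 13.3 ± 5.78 for Csf2rb2, 13.01 ± 3.43 for Il5ra and 0.377 ± 0.142 for Il3ra (SD, n = 4). The ranges of Csf2rb2 and Il5ra overlapped, while the other neighbours in this order did not. In gonadal fat the order of the means was the same, at 87.3 ± 9.89, 83.7 ± 43.1, 17.2 ± 5.71, 11.6 ± 5.12 and 2.31 ± 1.49 TPM, and the ranges of Csf2ra and Csf2rb overlapped, as did those of Csf2rb2 and Il5ra. In subcutaneous fat Csf2rb stood first by its mean (70.1 ± 39.4 TPM), before Csf2ra (53.2 ± 21.4), Csf2rb2 (16.5 ± 9.45), Il5ra (13.98 ± 8.86) and Il3ra (1.37 ± 0.519). There the ranges of Csf2rb and Csf2ra overlapped, as did those of Csf2rb2 and Il5ra, and the other neighbours did not.

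Part of the Csf2ra level per length came from short transcripts that keep an intron. Transcripts that GENCODE calls protein coding held 65.9% of its reads in blood, 65.1% in gonadal and 59.3% in subcutaneous fat, but 36.1%, 39.3% and 40.4% of its TPM. Csf2ra-201, the main coding form, took 64.8%, 64.9% and 58.9% of the reads of the gene. The retained-intron form Csf2ra-205, of 632 bases, took 11.2%, 10.5% and 10.2%. A longer retained-intron form, Csf2ra-202 of 2277 bases, took more of the reads, 17.8%, 21.1% and 27.6%. Its share ran from 15.4% to 20.9% in blood libraries, 17.5% to 26.8% in gonadal and 18.4% to 32.7% in subcutaneous fat, so the ranges overlapped. Counting coding transcripts alone, Csf2ra came first in 3 of the 12 libraries and Csf2rb in the other 9, and both had close means in blood, 22.3 ± 5.99 and 21.97 ± 6.10 TPM. On that scale Csf2rb had 52.2 ± 25.9 TPM in gonadal and 44.1 ± 22.8 TPM in subcutaneous fat, and Csf2ra 34.4 ± 5.29 and 21.1 ± 7.79 (SD, n = 4).

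For Csf2rb, the share of reads in coding transcripts was 91.2 ± 1.98% in blood, 82.0 ± 2.19% in gonadal and 83.2 ± 6.04% in subcutaneous fat. The retained-intron form Csf2rb-205 took 6.54% to 10.5% of its reads in blood libraries, 14.4% to 18.9% in gonadal and 8.67% to 22.9% in subcutaneous fat. Its gonadal share was thus above that of every blood library, while the subcutaneous range overlapped it. The main coding form, Csf2rb-201, took 19.0% to 81.9% of the reads in blood libraries, and Csf2rb-206, a coding form of nearly the same length, 7.16% to 70.4%. The split between these forms thus differed widely among libraries of 1 tissue. With coding transcripts alone the Csf2rb log2FC against blood was 1.06 in gonadal and 1.03 in subcutaneous fat, and neither was called (edgeR adjusted p = 0.0550 and 0.0638). Csf2rb-206 is described because of its values. All reads of Il5ra fell in coding transcripts, with Il5ra-202 taking 74.9%, 74.9% and 70.3% and Il5ra-203 25.1%, 25.1% and 27.4% of them in blood, gonadal and subcutaneous fat. Of Csf2rb2, Csf2rb2-201 took 86.3%, 90.9% and 73.0% and Csf2rb2-202 11.3%, 7.07% and 26.6%. Il3ra had too few reads in blood for such a split, and the share of Il3ra-203 ran from 0 to 67.1% there.

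**Figure D3:**
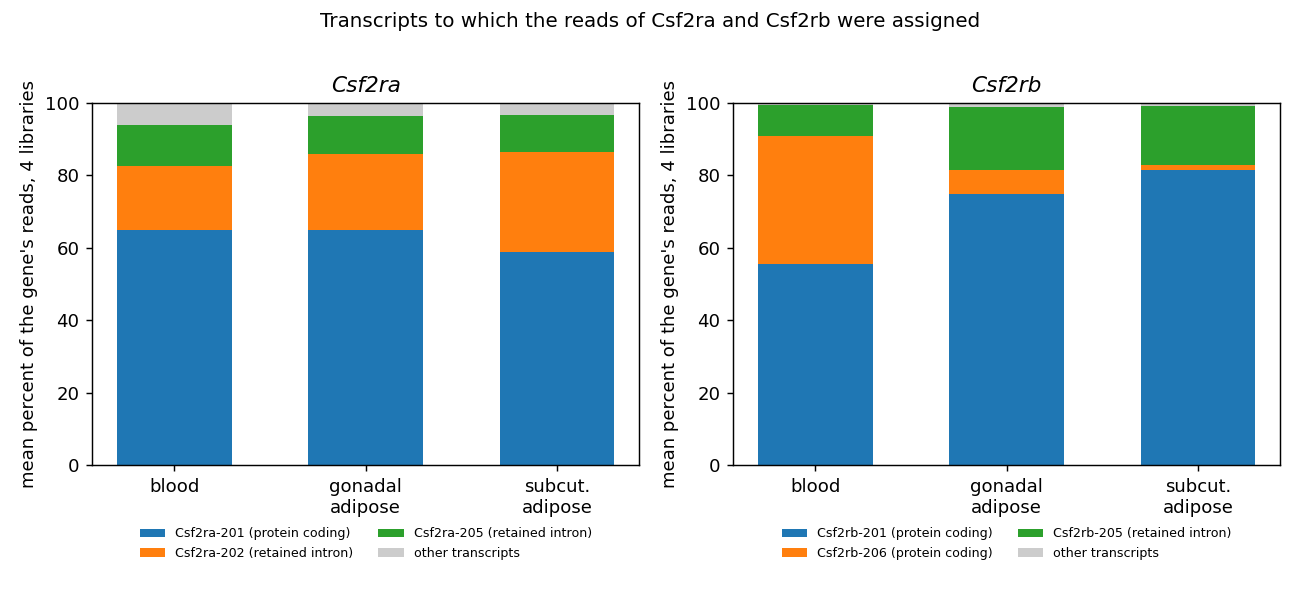
Mean percent of the reads of Csf2ra and Csf2rb (vertical axis, 0 to 100) assigned to their main transcripts in each group of 4 libraries, without error bars; grey is the sum of all other transcripts. The retained-intron form Csf2rb-205 takes 8.54% in blood, 17.6% in gonadal and 16.4% in subcutaneous fat, and the split between Csf2rb-201 and Csf2rb-206 differs widely within blood.

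The share of Csf2rb2 in the beta chain reads varied little within blood and was higher there than in every fat library. Of all beta chain reads, Csf2rb2 held 29.6 ± 0.714% in blood (28.9% to 30.5%), 19.9 ± 2.83% in gonadal (17.0% to 23.8%) and 20.7 ± 1.39% in subcutaneous fat (19.2% to 22.5%; SD, n = 4). Per length, the ratio of Csf2rb2 to Csf2rb TPM was 0.452, 0.353, 0.380 and 0.651 in the blood of mice 2668, 2683, 2771 and 2807. It was 0.172, 0.307, 0.230 and 0.184 in gonadal fat of mice 2668, 2683, 2807 and 2846, and 0.240, 0.211, 0.237 and 0.261 in subcutaneous fat of mice 2668, 2771, 2807 and 2846. Every blood library had a higher ratio than every fat library. The difference of mean log2 ratios was -1.04 in gonadal and -0.91 in subcutaneous fat, with a two-sided exact permutation p of 0.0286 each. That is the smallest p that 4 against 4 libraries allow. It became 0.0857 when adjusted over the 9 ratio tests, so neither difference is called. For a call, most of the 9 tests would have had to reach that smallest p. The lack of a call therefore does not decide whether the ratios differ. Between the depots the difference was -0.12 (exact permutation p = 0.543, n = 4 each). The size depended on the unit: with coding transcripts alone the differences from blood were -0.71 and -0.45, and with estimated counts -0.77 and -0.69, all with an adjusted exact permutation p of 0.0643. These ratios rest on the split of shared reads described above.

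The alpha chain for interleukin-5 was set against the sum of both beta chains in the same way. The ratio of Il5ra to beta chain TPM was 0.223, 0.301, 0.408 and 0.363 in the blood of mice 2668, 2683, 2771 and 2807. It was 0.0977, 0.0855, 0.146 and 0.137 in gonadal fat of mice 2668, 2683, 2807 and 2846, and 0.108, 0.125, 0.217 and 0.260 in subcutaneous fat of mice 2668, 2771, 2807 and 2846. The gonadal values lay below all blood values, and the subcutaneous values overlapped with them. Against blood the difference of mean log2 ratios was -1.48 in gonadal fat (exact permutation p = 0.0286, adjusted 0.0857) and -0.93 in subcutaneous fat (exact permutation p = 0.0571, adjusted 0.103). The limit of the adjusted p given above holds here too. The ratio of Il5ra to Csf2ra had geometric means of 0.209 in blood, 0.122 in gonadal and 0.244 in subcutaneous fat. Its exact permutation p were 0.171 and 0.543 against blood and 0.0571 between the depots, or 0.257, 0.543 and 0.103 after adjustment.

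**Figure D4:**
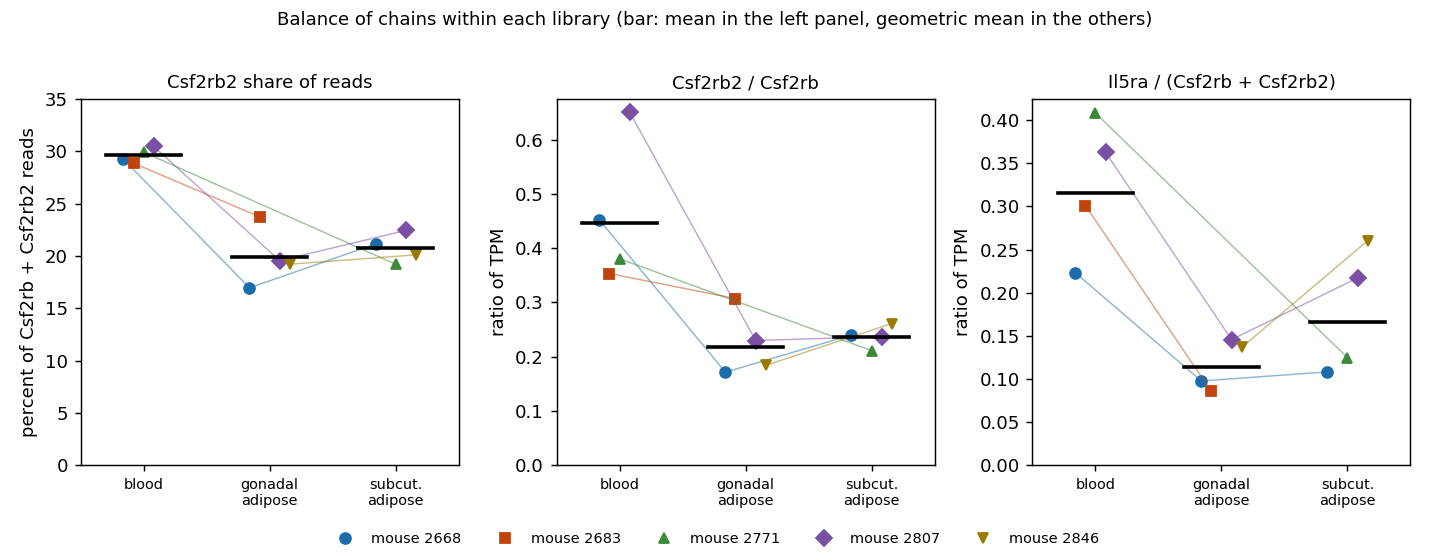
Share of Csf2rb2 in all beta chain reads (left, percent) and ratios of TPM of Csf2rb2 to Csf2rb (middle) and of Il5ra to both beta chains (right) in each library, on linear axes from 0; symbols are mice, bars group means (left) or geometric means. Csf2rb2 makes up 28.9% to 30.5% of beta chain reads in blood and 17.0% to 23.8% in fat.

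Across the 12 libraries, the log2 CPM of Csf2rb and Csf2rb2 had the highest correlation of the 10 member pairs (Pearson r = 0.878), and Il3ra and Il5ra the lowest (r = -0.489). These values describe libraries that share groups, mice and, for the beta chains, divided reads. Among 5401 genes with at least 20 CPM on average, predicted and ribosomal protein genes left out, the gene closest to Il5ra was Dhx40 (r = 0.987), before Kmt2c (0.959) and Hnrnph3 (0.954). Closest to Il3ra were Cenpb (0.967), Cd36 (0.965) and Spred1 (0.962). Closest to Csf2ra were Minos1 (0.934), Dnmt3a (0.932) and Etfb (0.925), and closest to Csf2rb were Ncaph2 (0.981), Etf1 (0.977) and Mylk3 (0.975). Closest to Csf2rb2 were Adgre1 (0.957), which encodes the F4/80 antigen, then Hnrnpm (0.944) and Siglecf (0.938). Siglecf and Adgre1 encode surface proteins of mouse eosinophils, and neither passed the test between fat and blood.

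The ligands were hardly detected in the sorted cells themselves. Il3 had 0 counts in every library. Il5 had 1 count, in the gonadal library of mouse 2668. Csf2, which encodes GM-CSF, had 6 counts in that library, 1 in the gonadal library of mouse 2846, 2 in the subcutaneous library of mouse 2771 and 0 in all others. A count of 0 allows up to 3 counts in a library, which is 0.118 CPM in the deepest and 0.898 CPM in the shallowest, by counting error alone. None of the ligands passed the filter, so none was tested.

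Downstream of the receptors, the called genes of the kinase, STAT, adaptor and PI3-kinase lists were lower in fat with 1 exception, Ptpn11 in gonadal fat, and the called targets and feedback genes were higher with few exceptions. Of 87 pathway genes, 84 were tested. Of these, 11 were higher and 26 lower in gonadal fat, and 8 were higher and 27 lower in subcutaneous fat. Over all genes tested, 15.4% were higher and 11.6% lower in gonadal fat, and 15.4% and 11.4% in subcutaneous fat. Those shares are the background for the counts of each list below, also for the other cytokine receptor chains. The median log2FC of the pathway genes was -0.20 and -0.28, beside 0.08 and 0.07 over all genes tested. None of the pathway genes was called by edgeR between the depots. These counts describe lists drawn up with earlier results in view and are no test of the pathway.

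Of 15 receptor-proximal kinases and phosphatases, 1 was higher and 5 lower in gonadal fat, and 0 and 5 in subcutaneous fat (median log2FC -0.44 and -0.47). Jak2, the kinase bound to the beta chain, had 175.8 CPM in blood, 113.6 in gonadal and 115.1 in subcutaneous fat, with a log2FC of -0.63 and -0.61 (edgeR adjusted p = 0.0126 and 0.0152). Lyn, a Src family kinase that associates with the interleukin-5 receptor, was not called, at log2FC of -0.20 and -0.14. Among the called genes of this list, the largest differences were in Fgr, another Src family kinase (log2FC -1.20 and -1.11), and Ptpn6, which encodes the phosphatase SHP-1 (-1.07 and -1.06). Of 5 STAT genes, 3 were lower in gonadal and 2 in subcutaneous fat. Stat5b was lower in both (230.0 CPM in blood, 152.5 and 158.3 in fat, edgeR adjusted p = 0.0165 and 0.0260). Stat5a was not called, at 49.3 CPM in blood and 37.1 and 42.5 in fat. Stat6, which carries the signal of the interleukin-4 receptor, was lower in both (log2FC -1.03 and -0.99).

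Of 11 PI3-kinase and AKT genes, 8 were lower in gonadal and 7 in subcutaneous fat, with none higher and a median log2FC of -0.95 and -0.72. The largest differences were in Pik3r5 and Pik3cg, the regulatory and catalytic subunits of the gamma enzyme, at log2FC of -1.56 and -1.49 in gonadal and -1.64 and -1.16 in subcutaneous fat. Of 17 adaptors and Ras-MAPK genes, 3 were lower in gonadal and 4 in subcutaneous fat, with none higher. Among them were Gab2, a docking protein for PI3-kinase (log2FC -0.77 and -0.84), Braf in gonadal fat (145.6 CPM against 291.1 in blood) and Mapk3, which encodes ERK1, in subcutaneous fat (-0.78). Of 8 genes of receptor turnover and binding partners, 1 was higher and 2 lower in gonadal fat and 0 and 2 in subcutaneous fat. The lower ones were the ubiquitin ligase genes Rnf41 (-0.78 and -0.86) and Cblb (-0.59 and -0.66).

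Of 16 STAT5 targets and feedback genes, 6 were higher and 1 lower in gonadal fat, and 6 higher and 2 lower in subcutaneous fat, with a median log2FC of 0.91 and 1.30. Osm, which encodes the cytokine oncostatin M, was 7.74 to 14.04 CPM in blood, 159.9 to 563.0 in gonadal and 147.9 to 466.5 in subcutaneous fat (log2FC 4.94 and 4.90). Pim1, a serine/threonine kinase, was 135.8 to 225.4 CPM in blood, 585.3 to 1105 in gonadal and 426.1 to 1315 in subcutaneous fat (log2FC 2.23 and 2.26). Its relative Pim3 was higher by 3.34 on the log2 scale in gonadal and 3.84 in subcutaneous fat. Spred1, an inhibitor of Ras signalling, was higher by 3.39 and 3.47. Socs2 was higher (log2FC 4.10 and 3.38), from 0 to 1.19 CPM in blood to 3.10 to 23.1 in gonadal and 1.80 to 13.3 in subcutaneous fat. Socs3 was higher as well (1.39 and 2.28, edgeR adjusted p = 0.0498 and 0.00646). Cish, an early STAT5 target, had log2FC of 1.59 and 1.06 and was not called (edgeR adjusted p = 0.0502 and 0.166), nor was Socs1 (-0.31 and -0.23). The lower genes were Ccnd3 in both depots (log2FC -1.32 and -1.16) and Myc in subcutaneous fat (-1.38). The survival genes Bcl2l1 (-0.07 and -0.20) and Mcl1 (-0.45 and -0.33) were not called in either depot. Many genes of this list respond to other cytokines and to stress, and neutrophil marker sums were lower and macrophage sums higher in fat, as given above. Their part in these values was not tested.

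Of 12 transcription factors that bear on Il5ra, 3 were higher and 4 lower in gonadal fat and 2 higher and 5 lower in subcutaneous fat, while Il5ra itself was not called. Gata1, a lineage factor of eosinophils, was lower (log2FC -1.35 and -1.31) and Gata2 higher (2.63 and 3.54), from 66.5 and 2.87 CPM in blood to 26.1 and 17.9 CPM in gonadal fat. Cebpb was higher (32.5 CPM in blood, 276.9 in gonadal and 338.7 in subcutaneous fat). Rfx1, a factor known to bind the human IL5RA promoter, was lower in both depots (log2FC -1.63 and -1.32).

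For comparison, 33 of 34 other cytokine receptor chains were tested, of which 9 were higher and 6 lower in gonadal fat and 11 higher and 5 lower in subcutaneous fat. Their median log2FC was 0.35 and 0.63, also with Osmr, which had 0 counts in blood, at its bound. Csf3r, the G-CSF receptor of neutrophils, had 325.1 CPM in blood, 11.1 in gonadal and 18.5 in subcutaneous fat (log2FC -4.87 and -4.13, edgeR adjusted p = 9.17e-06 and 1.90e-05). The neutrophil marker sum, in blood mostly Retnlg and Mmp9, was also lower in fat (373.7 to 1296 CPM against 2915 to 4258). Its part in that difference was not tested. Lifr, the receptor chain for leukaemia inhibitory factor, was higher in both depots (2.72 and 3.28). Il4ra was called in gonadal fat (log2FC 0.79, edgeR adjusted p = 0.0391) and not in subcutaneous fat (0.74, 0.0502), a difference between depots that was not called when tested. Il1rl1, the interleukin-33 receptor, was not called, at 86.5 to 150.5 CPM in blood, 146.5 to 1107 in gonadal and 132.5 to 859.3 in subcutaneous fat (edgeR adjusted p = 0.0563 and 0.142). Csf1r, the M-CSF receptor of monocytes and macrophages, was not called either (log2FC 0.65 and 0.63).

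**Figure D5:**
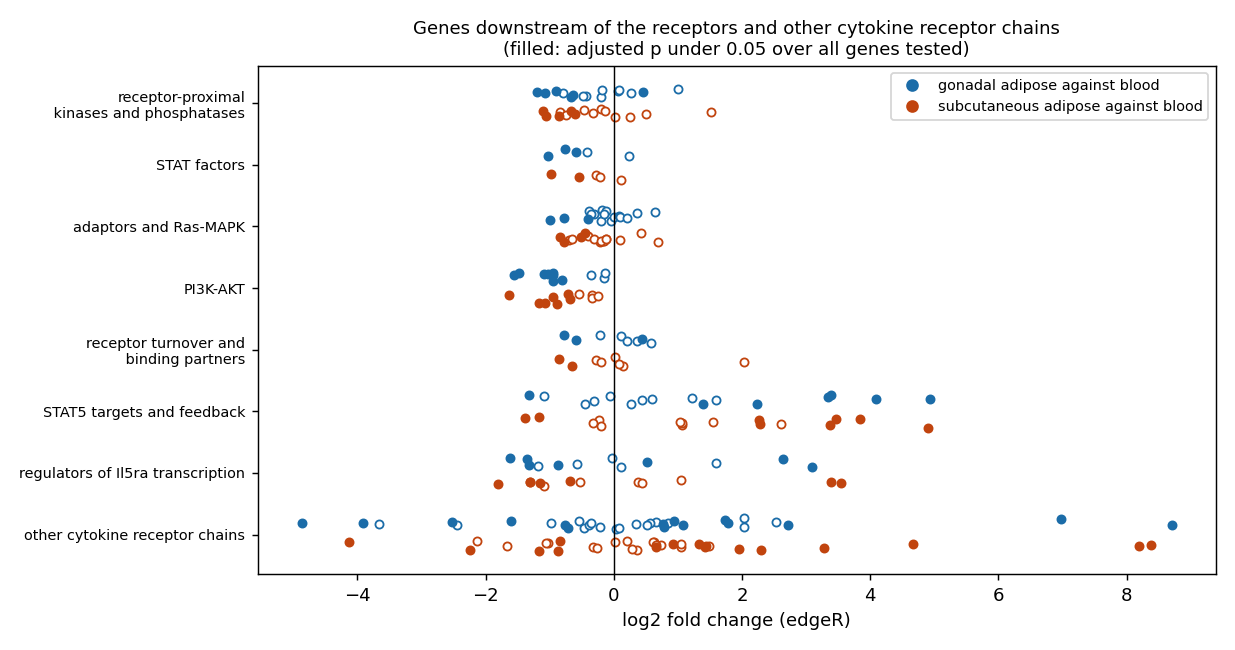
Log2 fold change against blood (horizontal axis) of each gene tested, by list (vertical axis), from edgeR on 4 libraries a group; filled points have an adjusted p under 0.05 and vertical spread within a row has no meaning. PI3-kinase and AKT genes lie to the left of 0 in both depots; the points to the far right on the bottom row are Osmr and Epor, with 0 and at most 0.0470 CPM in blood libraries, so their fitted values are no measure of size.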

How the data were processed

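Stranded total RNA libraries of sorted eosinophils were quantified by the authors; Trim Galore 0.6.4, Salmon 1.6.0, DESeq2 1.30.1 and the mm10 build are named in the submitters' processing notes. The deposited tables hold, per the file headers, estimated counts (expected counts that need not be whole), TPM and effective lengths for 140992 transcripts. The annotation release, and whether strand was used in quantification, are not given in the sources used here; without strand, antisense partners could not be separated. Estimated counts were summed per gene over the GENCODE M21 annotation of GRCm38 (139791 transcripts matched; 1201 did not, with 0.351% to 0.538% of reads, and were left out) and rounded. Deposited TPM were summed per gene for levels between genes and for ratios.

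All 12 libraries entered 1 fit of edgeR 4.0.16 (R 4.3.3; quasi-likelihood test, robust, TMM, filterByExpr, group as the only term), with Benjamini-Hochberg adjustment over 15367 genes. Genes were called at an adjusted p under 0.05. edgeR put the common coefficient of biological variation at 0.545. CPM use TMM-scaled library sizes. The 9 ratio comparisons used two-sided exact permutation tests. The fit was tested on simulated data.

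Samples with the same mouse number come from the same animal, as the labels give it. The correlation of deviations from group means ran from -0.11 to 0.358 over 9 same-mouse pairs (mean 0.0842), against a mean of -0.0188 for 39 pairs of different mice. With mouse as a replicate block, no call of the 5 genes changed.

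The 5 genes, the pathway lists and the marker lists were chosen with earlier results of these data known. Named beyond the 5 genes were, per list and comparison, the 2 called genes of at least 20 CPM with the largest change, a fixed set of ligands, kinases, STAT and feedback genes and receptors, and the 3 genes closest to each member by Pearson r of log2 CPM (prior count 2). Csf2rb-206, Csf2ra-202, Ptpn11, Ccnd3, Myc, Bcl2l1, Mcl1, Osmr and Epor were added after their values were seen, as were the genes named from the marker lists. Alternatives were DESeq2 1.42.0, limma-voom (limma 3.58.1), other scalings and filters, other transcript sets and samples, and leaving out libraries. Libraries differ in depth, and precision is lowest where counts are few, as for Il3ra in blood.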

Additional observations from a re-analysis of the deposited data

How the results depend on the processing

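The calls of Il3ra against blood were kept in each alternative that tested it (log2FC 2.16 to 2.94 in gonadal and 1.82 to 2.46 in subcutaneous fat); it did not pass a filter of 10 CPM. With mouse as a replicate block, which pairs samples of 1 animal, Csf2rb kept both calls (1.26 and 1.07, edgeR adjusted p = 0.0264 and 0.0473), as did Il3ra (2.57 and 2.31), and Csf2rb2 between the depots changed sign to 0.03 without being called. Csf2rb lost its gonadal call with no filter (1.24), coding transcripts alone (1.06) and the paralogs added together (1.03). It lost the subcutaneous call with the same settings (1.12, 1.03 and 0.95) and with upper quartile factors (1.10). Leaving out 1 library at a time gave 0.91 to 1.41 for Csf2rb in gonadal fat (call lost in 7 of 12) and 0.76 to 1.38 in subcutaneous fat (9 of 12). Csf2ra passed in gonadal fat with DESeq2 (0.59), limma-voom (0.55), a filter of 10 CPM (0.62) and these groups alone (0.58). It ranged from 0.46 to 0.69 with 1 library left out (call gained in 3 of 12), and was 0.42 and not called with a length offset. Values near 0 that were not called changed sign. Il5ra in subcutaneous fat became 0.0096 with DESeq2, 0.012 with RLE factors, 0.0070 with these groups alone, 0.090 with limma-voom, 0.034 with a filter of 10 CPM, 0.043 with a length offset, 0.049 with coding transcripts and 0.18 without gonadal 2683 and subcutaneous 2846, the alternative chosen after seeing the data; it ran from -0.23 to 0.18 with 1 library left out. Csf2ra in subcutaneous fat became -0.21 with a length offset, and -0.10 to 0.25 with 1 library left out. Csf2rb2 between the depots became 0.078 with the paralogs added, and -0.31 to 0.32 with 1 library left out; Csf2rb between the depots ran from -0.21 to 0.48. The ratio of Il5ra to Csf2ra in subcutaneous fat, a log2 difference with no call, became -0.16 from counts and ran from -0.026 to 0.38 with 1 library left out. The cause of these changes was not tested. Of 462 values recomputed in all, 410 were counted as unchanged. For most this meant the same direction and the same side of the threshold. For ratios with 1 library left out no p was used. There it meant the same direction and a shift smaller than the larger SD of the groups compared. Over all genes, calls in gonadal fat were 2372 higher and 1780 lower, and 3645 and 2887 with limma-voom; between the depots there were 1, and 157 with DESeq2. In subcutaneous fat they were 2366 and 1755, and 1598 and 1202 without the blood library of mouse 2771. Depth limits Il3ra most, with 10 to 36 counts in blood libraries.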
